A study of Bos taurus with 12 samples.

Results

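Lysosome and autophagy genes were followed in right ventricular RNA of 12 Angus steers kept all their lives in the thin air of high altitude. The set is a given list of 39 gene symbols, looked up in a table of 24616 genes. Of these, 36 symbols have a row and none has more than 1. CTSD, CTSL2 and WIPI1 have no row under these symbols and are not analysed here. CTSL1 lay between 0.0253 and 0.353 RPKM (reads normalized to exon length and sequencing depth) and failed the filter of at least 1 RPKM in at least 3 libraries. The other 35 exceeded 1 RPKM in all 12 libraries, so none entered the tests through 1 group alone. A row with the symbol CTSL, far more abundant than CTSL1, lies outside the list and is described with the cathepsins below.

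Lysosomes are acidic organelles in which hydrolases break down proteins, glycogen, lipids and sugar chains. Autophagy delivers worn cytoplasm and mitochondria to them in membrane vesicles called autophagosomes, and the transcription factor TFEB is known to switch on many lysosomal and autophagy genes together. In heart muscle, loss of the lysosomal glycogen-degrading enzyme (Pompe disease), of a lipid-degrading one (Fabry disease) or of the membrane protein LAMP2 (Danon disease) causes cardiomyopathy in humans.

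The steers carried no engineered allele (genotype WT), were castrated males raised at 2170 m (7120 ft), and their age at slaughter was 13 to 15 months. Pulmonary arterial pressure (PAP) was read repeatedly with a catheter in the right heart, and the pressure and clinical signs set 3 groups: low PAP, called hypoxia-tolerant (6 animals), high pressure in healthy animals (PH-healthy, 3) and high pressure with failure of the right heart (PH-failure, 3). High pressure in these arteries is pulmonary hypertension (PH). All groups shared the chronic hypoxia, so the comparisons are between animals at altitude and none is with animals at low elevation. Each library came from a different animal, so replicates are biological.

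Mapped reads numbered 14739237 to 31090198 a library, and the tested members had 67 to 15273 reads in a library, with a median of 1174.5. The 8 heart muscle markers, among them MYH7 and TNNI3, summed to 51330 to 89320 RPKM and none was at 0. PH-failure replicate 3 stood apart, with the lowest sum of muscle markers (51330 RPKM, against 68600 or more in the others) and the highest of fat cell markers (1563 RPKM, against 543.4 or less). It was the highest of the 12 libraries in 11 of the 35 members, against 28.7% of all tested genes. Counts of called genes are therefore also given without it.

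Over single libraries, the abundance of the plotted transcripts spanned more than 2 orders of magnitude (the plot of 30 tested members by library). In low PAP the mitochondrial damage sensor PINK1 was at 142.8 ± 21.5 RPKM (SD, n = 6) and the adaptor SQSTM1 at 116.9 ± 13.99. PINK1 lay above SQSTM1 in every low-PAP library but replicate 6 (110.7 against 133.0 RPKM). Of the lysosomal proteins among the members, PSAP was at 113.7 ± 26.8 RPKM, CTSB at 89.0 ± 13.6, LAMP1 at 74.5 ± 7.13 and NPC2 at 64.7 ± 6.50. Their standard deviations overlap from 1 to the next between animals, but this order held within every low-PAP library. GLA (1.89 ± 0.563), NPC1 (1.98 ± 0.598) and GAA (2.54 ± 0.735) were the least abundant. GAA lay above GLA and NPC1 within every low-PAP library, and GLA below NPC1 in all but replicate 2.

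**Figure D1:**
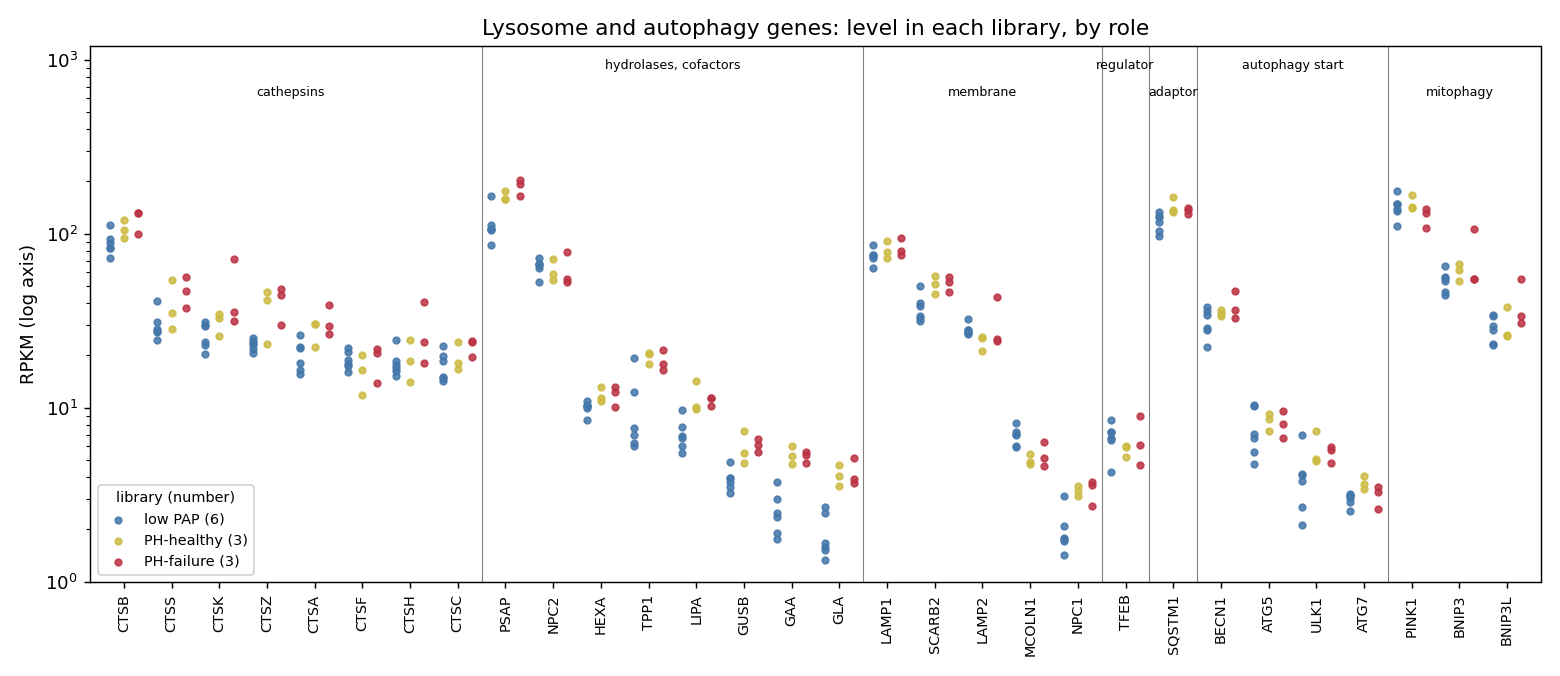
Level of 30 of the tested genes in RPKM on a log axis, 1 point per library, grouped by role and ordered within a role by the low-PAP mean. In GAA and GLA all 6 points of pulmonary hypertension lie above all 6 low-PAP points, while those of ATG5 and BECN1 overlap between the groups.

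Of the 8 hydrolases and cofactors, 6 were called higher in each group with pulmonary hypertension. Of the 8 tested cathepsins, 5 were called higher in PH-failure and 1 in PH-healthy, a contrast that was not itself called for any of them. No gene of autophagy initiation or mitophagy was called with all 12 libraries and the groups as the only term. In PH-failure, 13 of 35 members were higher than in low PAP (limma, adjusted p under 0.05), where 28.0% of all 11374 tested genes were, and none was lower, against 5.79%, so that 13 were called in either direction, against 33.8%. In PH-healthy, 9 were higher, against 26.6% of all genes, and 2 lower, against 8.15%, together 11 against 34.7%. With both groups together, called all PH below, 14 were higher, against 37.3%, and 2 lower, against 10.4%, together 16 against 47.7%. Without PH-failure replicate 3, 4 members were called in PH-failure, where 13.5% of all genes were, 11 in PH-healthy, against 38.6%, and 13 in all PH, against 44.1%. The members' counts of calls in either direction are thus near the background in each comparison. With all 12 libraries they lay slightly above it in PH-failure and below it in PH-healthy and all PH. Without PH-failure replicate 3 they lay below it in each comparison. The comparisons share the low-PAP libraries and are not independent.

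The median log2 fold change of the 35 members was 0.37 in PH-failure, 0.21 in PH-healthy and 0.26 in all PH, beside 0.21, 0.18 and 0.19 over all tested genes. Beside this general upward shift of deposited RPKM, the share of reads from the mitochondrial genome was 19.8 to 25.7% in low PAP and 15.3 to 17.8% in pulmonary hypertension. With libraries scaled without these reads, the all-gene median in all PH was 0.13. Of all calls there 68.6% were higher, in place of 78.3%, and 10 members were higher and 2 lower. The part of this share in the results was not tested beyond this scaling and those below. In all PH, 22 of the 35 members lay above the all-gene median. With PH-failure replicate 3 left out, the members' median was 0.19 in PH-failure, where that of all genes was also 0.19, and 0.18 in all PH, where that of all genes was 0.18, with 17 of the 35 members above it. With RPKM as deposited, the members' excess over all genes in these comparisons thus rested on that library. With quantile normalization of all 12 libraries the members' median was 0.224 in PH-failure, 0.143 in PH-healthy and 0.165 in all PH. Those of all genes were -0.029, -0.043 and -0.034. With median-ratio scaling the members' medians were 0.117, 0.004 and 0.030, beside 0.007, -0.0006 and 0.004. Neither scaling was run without that library.

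**Figure D2:**
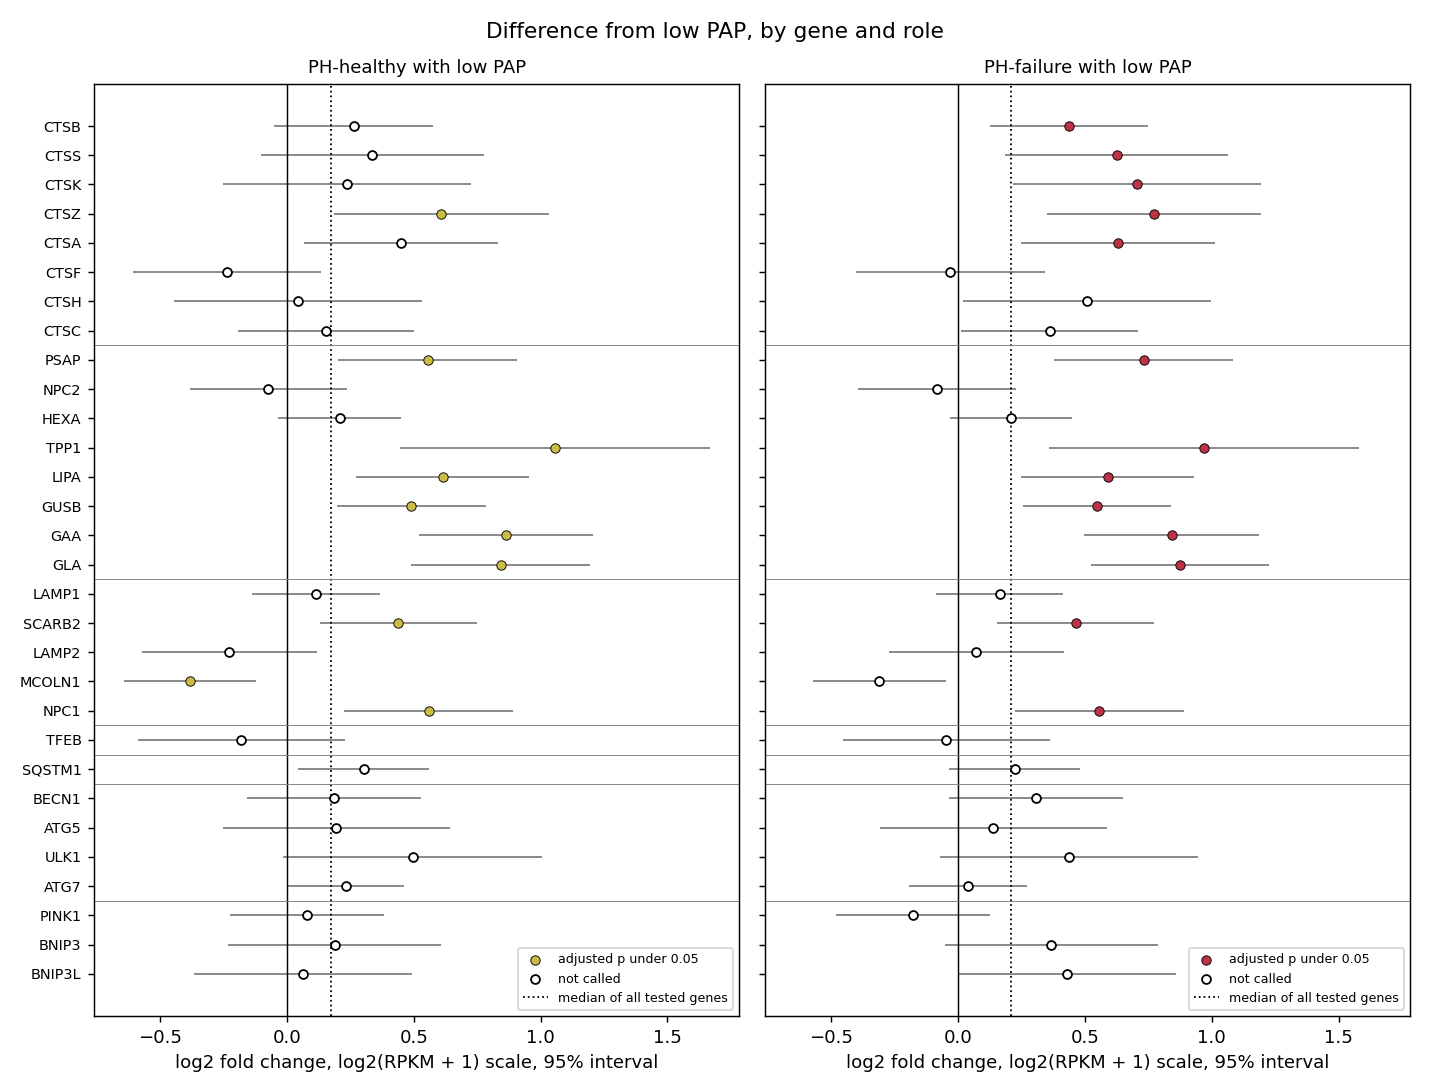
Log2 fold change from low PAP on the log2(RPKM + 1) scale with its 95% interval, for PH-healthy (left) and PH-failure (right), by role from cathepsins (top) to mitophagy (bottom). Filled points have an adjusted p under 0.05 and the dotted line is the median of all tested genes; 6 of 8 hydrolases and cofactors are filled in both panels, and none of the bottom 7 genes is.

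Of the 8 hydrolases and cofactors, 6 were higher in each of the 3 comparisons with low PAP, namely GAA, GLA, LIPA, GUSB, TPP1 and PSAP. The glycogen-degrading acid alpha-glucosidase GAA (chromosome 19, 53100964 to 53113264) was at 1.76 to 3.75 RPKM in low PAP, with a median of 2.42, at 5.28, 6.03 and 4.77 in PH-healthy and at 5.55, 5.39 and 4.82 in PH-failure. Every library with pulmonary hypertension exceeded every low-PAP library, as in 13.8% of all tested genes and in 3 members, GAA, GLA and LIPA, while no member lay below low PAP in all of them, against 2.93%. Against PH-failure alone 7 members lay above low PAP without overlap, where 18.6% of all genes did. The GAA mean was 2.11-fold that of low PAP in PH-healthy and 2.07-fold in PH-failure, and the log2 fold change in all PH, which the added 1 RPKM makes smaller, was 0.85 ± 0.13 (SE, adjusted p = 0.000514).

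GLA, the alpha-galactosidase that clears globosides (chromosome X, 55224013 to 55234673), was at 1.34 to 2.70 RPKM in low PAP (median 1.63), at 3.58, 4.72 and 4.07 in PH-healthy and at 3.70, 3.88 and 5.17 in PH-failure. The groups did not overlap, and the log2 fold change in all PH was 0.86 ± 0.13 (adjusted p = 0.000561). LIPA, the lysosomal acid lipase for cholesteryl esters and triglycerides (chromosome 26, 10988283 to 11030717), was at 5.51 to 9.69 RPKM (median 6.81), against 10.1, 14.2 and 9.82 in PH-healthy and 11.4, 11.5 and 10.3 in PH-failure. Low-PAP replicate 1 came close to the lowest PH-healthy library, and the difference was 0.60 ± 0.13 (adjusted p = 0.0031).

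GUSB, the beta-glucuronidase that trims glycosaminoglycans, was at 3.25 to 4.88 RPKM in low PAP (median 3.83), at 5.46, 7.38 and 4.85 in PH-healthy and at 6.13, 5.57 and 6.64 in PH-failure. Its groups overlapped only in that PH-healthy replicate 3 lay just under low-PAP replicate 6, and its difference in all PH was 0.52 ± 0.11 (adjusted p = 0.00293). TPP1, a tripeptidyl peptidase whose loss causes a childhood neuronal storage disease in humans, had the largest log2 fold change of the members in all PH on the log2(RPKM + 1) scale. By the ratio of group means it was 1.96-fold, below GLA (2.22-fold) and GAA (2.09-fold). It was at 6.00 to 19.2 RPKM in low PAP (median 7.35), at 20.5, 20.5 and 18.0 in PH-healthy and at 16.4, 21.4 and 17.8 in PH-failure. The 2 highest low-PAP libraries were replicates 6 (19.2) and 2 (12.3), replicate 6 lay inside the range of pulmonary hypertension, and the difference was 1.01 ± 0.23 (adjusted p = 0.0042).

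PSAP, the precursor of the saposins that present lipids to hydrolases (chromosome 28, 28123709 to 28157099), was at 86.6 to 165.4 RPKM in low PAP (median 106.6), at 176.3, 158.8 and 158.3 in PH-healthy and at 191.9, 164.9 and 202.7 in PH-failure. Only low-PAP replicate 6, at 165.4, reached the range of the other groups, and the difference in all PH was 0.64 ± 0.13 (adjusted p = 0.00257). The 2 not called were HEXA, a beta-hexosaminidase subunit, at 10.1 ± 0.843 RPKM in low PAP and 11.8 ± 1.21 in all PH (adjusted p = 0.0748), and NPC2, the soluble cholesterol carrier, at 64.7 ± 6.50 and 61.7 ± 10.6 (adjusted p = 0.603). Without PH-failure replicate 3, 6 hydrolases and cofactors were still called in all PH and 4 in PH-failure, where GUSB and TPP1 lost the call. In PH-failure LIPA and TPP1 also lost it without PH-failure replicate 2. In PH-healthy TPP1 lost it without PH-healthy replicate 1, LIPA and GUSB without replicate 2, and PSAP without any 1 of the 3. GAA, GLA, PSAP and TPP1 in all PH kept their call under all 20 alternatives run.

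**Figure D3:**
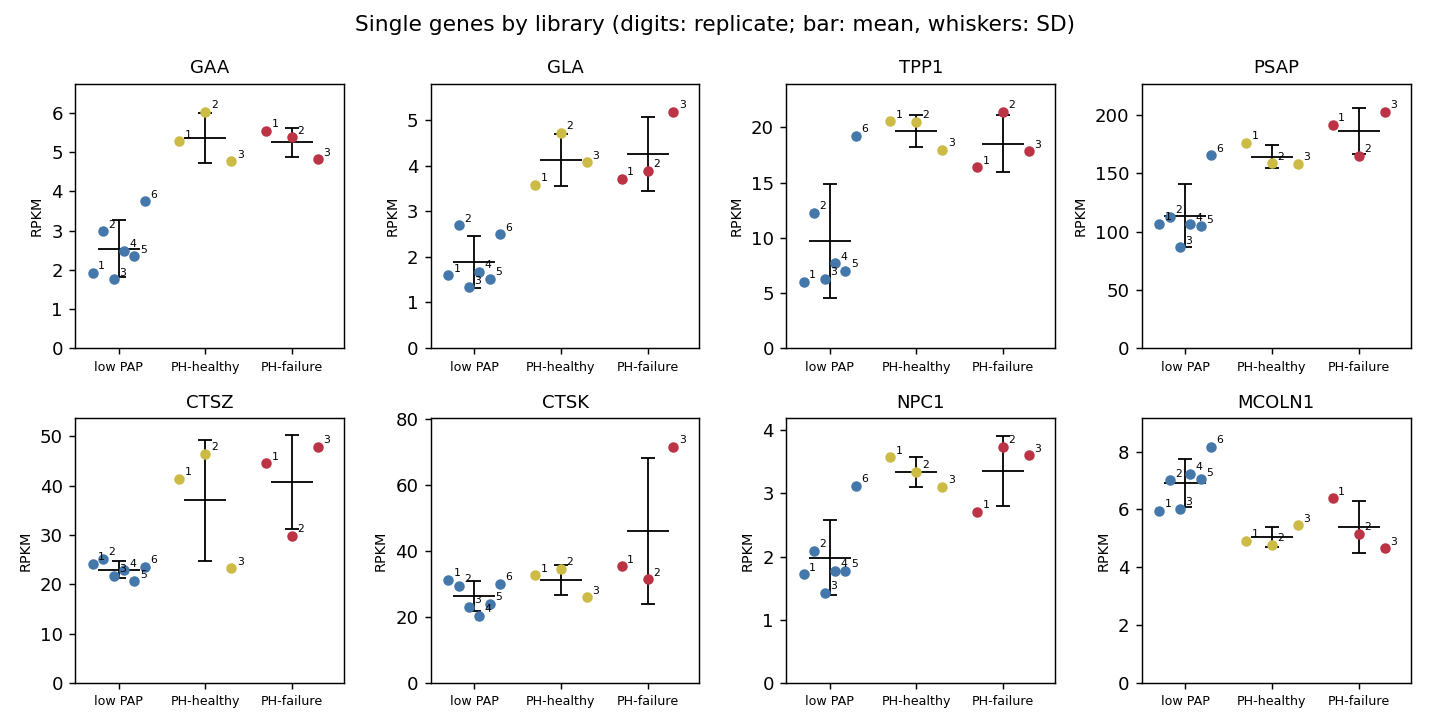
RPKM of 8 genes in each library (y axes start at 0), with replicate numbers, group means (bars) and standard deviations (whiskers). Low-PAP replicate 6 is the low-PAP library nearest to pulmonary hypertension in GAA, TPP1, PSAP and NPC1, and CTSK is set apart in PH-failure replicate 3.

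Cathepsins are the lysosomal proteases. Of the 8 tested, CTSZ, CTSA, CTSK, CTSS and CTSB were higher in PH-failure and again in all PH, and CTSZ alone in PH-healthy. Their summed level was 243.0 ± 28.4 RPKM in low PAP (SD, n = 6), 296.1 ± 58.9 in PH-healthy and 355.0 ± 70.4 in PH-failure (n = 3 each). CTSZ, a carboxypeptidase (chromosome 13, 57889706 to 57899205), was nearly level in low PAP at 20.6 to 25.2 RPKM (median 23.2), and was at 41.4, 46.5 and 23.2 in PH-healthy and 44.5, 29.8 and 47.9 in PH-failure. PH-healthy replicate 3 stayed at the low-PAP level, and the difference in all PH was 0.69 ± 0.16 (adjusted p = 0.00462). CTSA, the protective protein that stabilizes beta-galactosidase and neuraminidase, was at 15.5 to 26.3 RPKM in low PAP (median 19.95), at 30.2, 30.3 and 22.3 in PH-healthy and at 38.8, 26.6 and 29.3 in PH-failure. All 3 PH-failure libraries exceeded low PAP, PH-healthy replicate 3 did not, and the difference in all PH was 0.54 ± 0.14 (adjusted p = 0.00931).

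CTSK, a collagen-degrading protease, was at 20.3 to 31.3 RPKM in low PAP (median 26.7), at 32.6, 34.6 and 26.0 in PH-healthy and at 35.4, 31.4 and 71.6 in PH-failure. PH-failure replicate 3 set it apart, while replicate 2, at 31.4, was next to the highest low-PAP library, at 31.3. The difference from low PAP was 0.71 ± 0.23 in PH-failure (adjusted p = 0.0314) and 0.47 ± 0.18 in all PH (adjusted p = 0.0495). CTSS, abundant in antigen-presenting cells, was at 24.6 to 41.2 RPKM in low PAP (median 28.0), at 34.9, 54.4 and 28.2 in PH-healthy and at 56.5, 37.3 and 47.1 in PH-failure. The groups overlapped, and the difference in all PH was 0.48 ± 0.17 (adjusted p = 0.03). CTSB, the most abundant of the tested cathepsins, was at 72.8 to 112.9 RPKM in low PAP (median 85.8), at 105.3, 120.4 and 94.0 in PH-healthy and at 131.5, 99.6 and 131.4 in PH-failure. It overlapped with low PAP in both groups, and the difference in all PH was 0.35 ± 0.12 (adjusted p = 0.0271).

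CTSC, CTSF and CTSH were not called. CTSH was at 15.3 to 24.5 RPKM in low PAP (median 17.3), at 18.6, 24.4 and 14.1 in PH-healthy and at 23.8, 18.2 and 40.4 in PH-failure, where replicate 3 was again the highest library. Without that library no cathepsin was called in PH-failure, and in all PH 3 were, CTSB and CTSK losing the call. In PH-failure CTSB, CTSK and CTSS also lost the call without any 1 of low-PAP replicates 3, 4 or 5, CTSB without low-PAP replicate 1, and CTSA, CTSB and CTSS without PH-failure replicate 1. In all PH, CTSB, CTSK and CTSS lost it without low-PAP replicates 3, 4 or 5 or PH-healthy replicate 2, CTSK also without low-PAP replicate 2 or PH-healthy replicate 1, and CTSB and CTSS without PH-failure replicate 1. CTSZ in PH-healthy lost it without PH-healthy replicate 1 or 2 or low-PAP replicates 3, 4 or 5. A row with the symbol CTSL, outside the list and looked up after its values were seen, was at 23.2 ± 1.56 RPKM in low PAP, 23.7 ± 3.17 in PH-healthy and 26.7 ± 2.94 in PH-failure and was not called (adjusted p = 0.332 in all PH).

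The 5 lysosomal membrane proteins went in both directions. NPC1, which exports cholesterol from the lysosome, was at 1.42 to 3.13 RPKM in low PAP (median 1.77), at 3.57, 3.35 and 3.10 in PH-healthy and at 2.71, 3.74 and 3.61 in PH-failure. Low-PAP replicate 6 was the only low-PAP library inside the range of pulmonary hypertension, and the difference in all PH was 0.56 ± 0.13 (adjusted p = 0.00402). SCARB2, the receptor that carries glucocerebrosidase to the lysosome, was at 31.5 to 50.0 RPKM in low PAP (median 36.0), at 51.3, 57.0 and 45.1 in PH-healthy and at 52.8, 46.5 and 56.6 in PH-failure. It overlapped with low PAP through replicate 6 alone, and the difference was 0.45 ± 0.12 (adjusted p = 0.00794). The calls of NPC1 and SCARB2 in PH-failure were lost without PH-failure replicate 3, and those in PH-healthy without PH-healthy replicate 1 or 2. NPC1 in PH-failure was also lost without PH-failure replicate 2, SCARB2 there without PH-failure replicate 1, and SCARB2 in both groups without low-PAP replicates 3, 4 or 5.

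MCOLN1, the calcium channel of the lysosomal membrane (chromosome 7, 17614262 to 17623106), was the opposite. It was at 5.95 to 8.17 RPKM in low PAP (median 7.03), at 4.91, 4.78 and 5.45 in PH-healthy and at 6.38, 5.15 and 4.65 in PH-failure. All 3 PH-healthy libraries lay below low PAP, PH-failure replicate 1 did not, and the fall was called in PH-healthy (log2 fold change -0.38 ± 0.12, adjusted p = 0.0288) and all PH (-0.35 ± 0.10, adjusted p = 0.0129) but not in PH-failure (adjusted p = 0.0635). In PH-healthy the call was lost without any 1 PH-healthy library or without low-PAP replicate 4 or 5. In PH-failure the fall was called with quantile, median-ratio and non-mitochondrial scaling and without PH-failure replicate 1, and under no other alternative run. Groups lay apart in 9.3% of all genes as lower in PH-healthy, and 3 members did so, MCOLN1 and LAMP2 among them. LAMP2, the receptor of chaperone-mediated autophagy, was at 26.4 to 32.4 RPKM in low PAP (median 27.7), at 21.3, 25.6 and 25.2 in PH-healthy and at 24.8, 24.3 and 43.2 in PH-failure, and was not called (adjusted p = 0.28 in PH-healthy). PH-failure replicate 3 lay above the other 11 libraries, and the other 2 PH-failure libraries below all of low PAP. LAMP1, its close relative in the membrane, was at 74.5 ± 7.13 RPKM in low PAP and 82.2 ± 8.75 in all PH and was not called (adjusted p = 0.237).

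TFEB, the regulator itself, was at 6.74 ± 1.38 RPKM in low PAP, 5.74 ± 0.448 in PH-healthy and 6.59 ± 2.18 in PH-failure, and was not called (adjusted p = 0.566 in all PH). Its level in PH-failure ran from 4.67 to 8.96 RPKM, a wider span than that of low PAP. Its mRNA says nothing of the protein's entry into the nucleus, which was not measured.

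SQSTM1, the adaptor p62 that brings ubiquitinated cargo to autophagosomes, was at 97.0 to 133.0 RPKM in low PAP (median 120.8), at 136.0, 163.4 and 133.2 in PH-healthy and at 130.2, 137.5 and 140.2 in PH-failure. All PH-healthy libraries exceeded low PAP, the lowest of them barely. The rise was called in all PH (0.26 ± 0.10, adjusted p = 0.0405) and in neither group alone (adjusted p = 0.065 in PH-healthy and 0.155 in PH-failure), and it kept its call in 7 of 20 alternatives, with adjusted p from 0.0221 to 0.855.

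No gene of autophagy initiation and conjugation was called with all 12 libraries and the groups as the only term. The initiating kinase ULK1 came nearest, at 3.98 ± 1.68 RPKM in low PAP, 5.81 ± 1.38 in PH-healthy and 5.48 ± 0.601 in PH-failure (adjusted p = 0.0611 in all PH). It was called in each of the 3 comparisons with low PAP once low-PAP replicate 6 was left out. With the replicate number as a block, ULK1 was also called in PH-healthy and all PH. BECN1, of the lipid kinase complex, was at 31.2 ± 5.81 RPKM in low PAP and 36.9 ± 4.96 in all PH (adjusted p = 0.13). ATG5 and ATG7, of the conjugation machinery, had adjusted p of 0.43 and 0.21 in all PH. ATG7 was nonetheless higher in all 3 PH-healthy libraries (3.39 to 4.03 RPKM) than in low PAP (2.57 to 3.21), as 5 members were, against 25.0% of all genes.

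Mitophagy was represented by PINK1 and by BNIP3 and BNIP3L, receptors on mitochondria that hypoxia is known to induce. None was called with the groups as the only term, and BNIP3 was called higher in PH-failure with the library series (below) as a term. BNIP3 was at 53.5 ± 7.38 RPKM in low PAP, 60.9 ± 6.87 in PH-healthy and 72.4 ± 29.9 in PH-failure, the last with 106.9 in replicate 3 and 55.3 and 55.02 in the others. BNIP3L showed the same library apart, with 54.99 RPKM in replicate 3 against 33.5 and 30.7. PINK1 was at 107.4 to 139.1 RPKM in PH-failure and at 139.8 to 167.4 in PH-healthy, which do not overlap, as in 2.13% of all genes.

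PH-failure and PH-healthy were not told apart by any member. Of 35, 0 were called by limma, also with limma-voom, and 0 had an unadjusted p under 0.05, where 0.00879% of all genes, that is 1 gene, was called. The smallest unadjusted p were those of CTSK (0.0953, log2 fold change 0.47, 95% interval up to 1.03), CTSH (0.0997, 0.46, up to 1.03) and LAMP2 (0.128, 0.30, up to 0.70). In these 3 genes PH-failure replicate 3 was the highest of the 12 libraries. For GAA the difference was -0.02 ± 0.18 and for GLA 0.03 ± 0.19, with upper 95% bounds of 0.38 and 0.44. These bounds are not limits of detection, as the larger differences of CTSK and CTSH were not called with 3 animals each.

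How libraries are scaled changed the balance of calls (the plot of the called genes under 3 scalings). With quantile normalization the members called in all PH were 9 higher and 2 lower, and with median-ratio scaling, which sets the all-gene median to 0.00, they were 8 higher and 5 lower, so that the higher share fell from 87.5% to 61.5%. Over all genes that share fell from 78.3% to 49.6% with median-ratio scaling, and to 44.5% with quantile normalization. In PH-healthy median-ratio scaling gave 4 higher and 5 lower, a higher share of 44.4% in place of 81.8%, and in PH-failure 6 and 2, a share of 75.0% where all had been higher. GLA (0.69), GAA (0.67), PSAP (0.41) and CTSZ (0.46) stayed higher and MCOLN1 (-0.55) lower under it. CTSA, CTSB, CTSK and CTSS lost their call in all PH under it, which left 1 of the 8 cathepsins there and 1 in PH-failure. Quantile normalization left 3 cathepsins in each of these comparisons and, like median-ratio scaling, none in PH-healthy. Of the hydrolases and cofactors, median-ratio scaling left 6 higher in all PH, 5 in PH-failure and 3 in PH-healthy, and quantile normalization left 4 in each, LIPA and GUSB losing the call. No called member changed direction under any alternative.

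**Figure D4:**
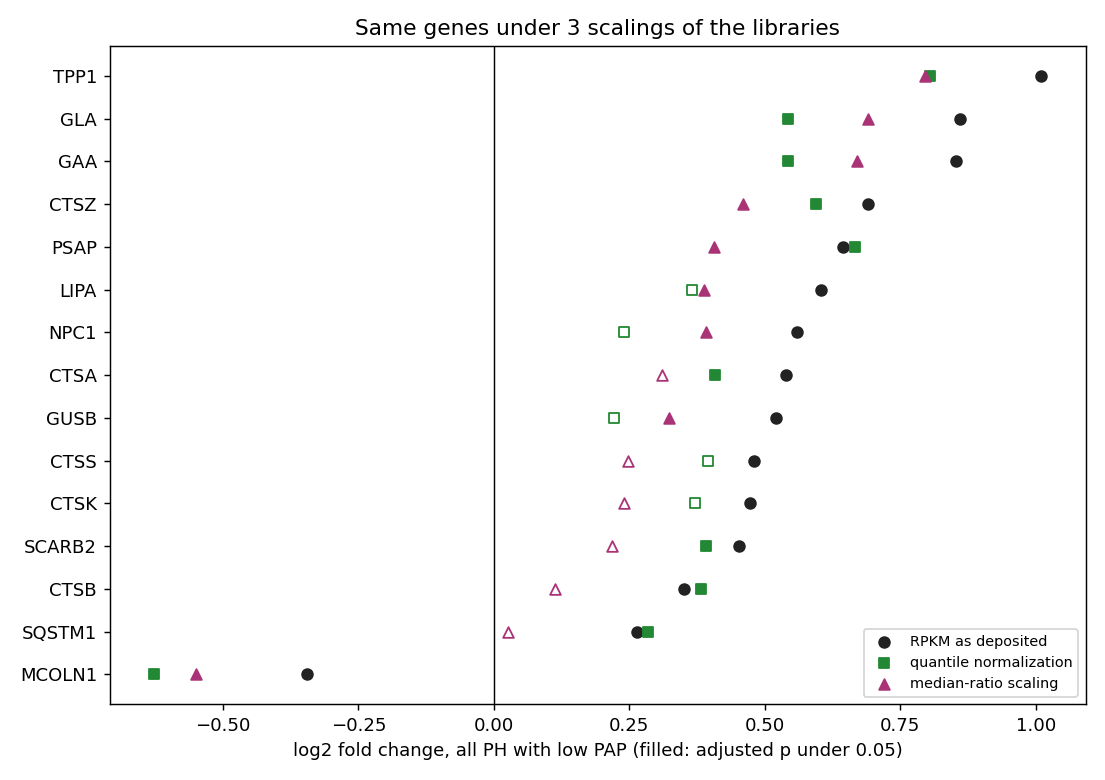
Log2 fold change in all PH of 15 called members, with RPKM as deposited (circles), after quantile normalization (squares) and after median-ratio scaling (triangles), filled where the adjusted p is under 0.05. Hydrolases stay right of 0 and MCOLN1 left of 0 under all 3.

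Libraries carry a series number in the labels, 55 or 56, whose meaning the labels do not give. Within series 55 (3 libraries of pulmonary hypertension and 3 of low PAP) and within series 56 (3 and 3), all 16 members called in all PH kept their direction, though they were called on these same libraries. The difference for GAA was 0.81 in series 55 and 0.90 in series 56, for TPP1 0.90 and 1.13, for CTSK 0.64 and 0.31, and for MCOLN1 -0.43 and -0.26. Low-PAP replicate 6 was the highest low-PAP library in 9 of the 14 members called higher in all PH, against 46.5% of all genes so called.

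The rest of the pathway was described with lists of lysosome and autophagy genes outside the 39. Their counts stand beside 37.3% of all genes higher and 10.4% lower in all PH with RPKM as deposited, 17.0% and 21.1% with quantile normalization, 22.0% and 22.3% with median-ratio scaling, and 34.2% and 9.88% without PH-failure replicate 3. Of 31 other lysosomal enzymes, 18 were higher in all PH and 1 lower, with a median log2 fold change of 0.37. The 18 include CTSO and PLA2G15, which were under 1 RPKM in every low-PAP library and entered the test through the other groups alone, and 16 remain without them. IDS, which removes sulfate from heparan and dermatan sulfate, was at 3.17 ± 1.79 RPKM in low PAP, 9.81 ± 0.220 in PH-healthy and 8.01 ± 1.26 in PH-failure (1.34 ± 0.23, adjusted p = 0.000915). ACP2, the lysosomal acid phosphatase, was at 2.01 ± 0.686, 4.04 ± 0.287 and 4.15 ± 0.285 RPKM (0.79 ± 0.14, adjusted p = 0.000931). These genes did not overlap between low PAP and the groups with pulmonary hypertension. Quantile normalization left 6 of the 31 higher and 4 lower, and median-ratio scaling 7 and 3. In PH-failure 14 were higher, and 4 without PH-failure replicate 3 (11.3% of all genes), whose removal left 17 higher and none lower in all PH. PLA2G15 is in each of these counts of higher enzymes, and CTSO also in the 14.

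Of 27 other membrane and trafficking genes, 9 were higher and 5 lower in all PH, the 9 including SLC36A1, which was under 1 RPKM in every low-PAP library. IGF2R, a mannose-6-phosphate receptor that sorts hydrolases to lysosomes, was at 2.09 to 7.87 RPKM in low PAP (median 2.89). It was at 13.1, 14.5 and 13.9 in PH-healthy and at 8.96, 13.8 and 12.01 in PH-failure. It lay above low PAP in every library, and its difference in all PH was 1.54 ± 0.23 (adjusted p = 0.00042). M6PR, also a mannose-6-phosphate receptor, was at 17.17 ± 1.345 RPKM in low PAP, 17.34 ± 1.103 in PH-healthy and 19.55 ± 1.95 in PH-failure and was not called. GNPTAB, the enzyme that starts making that mannose-6-phosphate tag, was at 4.34 ± 1.32 RPKM in low PAP, 10.3 ± 0.496 in PH-healthy and 9.72 ± 3.04 in PH-failure (1.06 ± 0.17, adjusted p = 0.000696). The 5 lower genes were LAMTOR2, LAMTOR3 and LAMTOR5, subunits of the complex that anchors mTORC1 signalling to the lysosome, with LAPTM4A and GNPTG. With quantile normalization this list gave 7 higher and 7 lower, with median-ratio scaling 7 and 8, and without PH-failure replicate 3 it gave 9 and 6. SLC36A1 is in each of these counts of higher genes.

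The proton pump that acidifies lysosomes, the V-ATPase, did not go one way: of 18 tested genes 4 were higher and 4 lower in all PH. ATP6V0A1, of the membrane part, was at 6.65 ± 2.31 RPKM in low PAP and 9.81 in the mean of all PH (0.54 ± 0.16, adjusted p = 0.0133), and ATP6V1D, of the soluble part, at 36.4 ± 2.13 and 30.4 (-0.26 ± 0.08, adjusted p = 0.0232). With quantile normalization no V-ATPase gene was higher and 4 were lower, and with median-ratio scaling none was higher and 6 were lower. Without PH-failure replicate 3, 5 were higher and 3 lower. Of the 3 tested cathepsin inhibitors CST6 was lower, at 74.2 ± 15.2 RPKM in low PAP, 41.9 ± 8.77 in PH-healthy and 47.2 ± 3.46 in PH-failure (-0.71 ± 0.15, adjusted p = 0.003), also under both scalings.

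Of 26 other autophagy core genes, 15 were higher and none lower in all PH. One of the higher genes, KIAA0226 (Rubicon), known as an inhibitor of autophagosome maturation, was at 0.716 ± 0.104 RPKM in low PAP, 2.17 ± 0.232 in PH-healthy and 1.66 ± 0.197 in PH-failure. It was under 1 RPKM in every low-PAP library and passed the filter through the other groups alone, so it had to differ, and 14 remain without it. AMBRA1, a partner of BECN1, was also higher (0.58 ± 0.11, adjusted p = 0.00187). Of 13 other receptor and mitophagy genes, 6 were higher, with WDFY3 (0.95 ± 0.16, adjusted p = 0.000795) and TAX1BP1 (0.44 ± 0.10, adjusted p = 0.00462) first, and FUNDC1, a mitophagy receptor, was lower (-0.31 ± 0.09, adjusted p = 0.0112). Of 13 other regulators, 11 were higher, among them MTOR (0.64 ± 0.12, adjusted p = 0.00135), the kinase that holds autophagy back, and MITF (1.1 ± 0.22, adjusted p = 0.0024) and TFE3 (0.36 ± 0.11, adjusted p = 0.0157), both relatives of TFEB. TFE3 was called under neither scaling. Under quantile normalization these 3 lists gave 5 higher and 2 lower, 4 and 1, and 5 and 1. Under median-ratio scaling they gave 7 and 3, 2 and 2, and 5 and 1. Without PH-failure replicate 3, the 3 lists gave 14 and 0, 4 and 1, and 9 and 0 in all PH with RPKM as deposited. In PH-failure the 3 lists had 10, 4 and 7 genes higher, and 1, 0 and 0 without that library, the 1 being KIAA0226. KIAA0226 is also in each count of higher core genes under the scalings, without that library and in PH-failure.

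Some marker genes of other cell types were also called. Their counts in all PH stand beside 37.3% of all genes higher and 10.4% lower. In bulk tissue, more cells of a type and more RNA per cell cannot be told apart. The 15 macrophage markers, cells rich in lysosomes, summed to 195.7 to 334.5 RPKM in low PAP, 249.0 to 410.8 in PH-healthy and 272.1 to 468.4 in PH-failure, and none was at 0. Of the 14 tested, 9 were higher in PH-failure, 3 in PH-healthy and 8 in all PH, where 28.0%, 26.6% and 37.3% of all genes were. Without PH-failure replicate 3 the macrophage counts were 1, 4 and 6, beside 11.3%, 29.0% and 34.2%. In all PH 3 were higher with quantile normalization (17.0% of all genes) and 5 with median-ratio scaling (22.0%). The 9 fibroblast markers summed to 609.6 to 891.4, 697.2 to 1284 and 986.8 to 1538 RPKM, with 6 higher in all PH and none at 0, and the 6 endothelial ones to 73.4 to 127.7, 128.8 to 148.6 and 140.5 to 225.4 RPKM, with 5 higher and none at 0. Leaving out PH-failure replicate 3, 5 fibroblast and 5 endothelial markers were higher. Of 6 smooth muscle and pericyte markers 4 were higher in all PH, with sums of 124.2 to 214.7, 177.6 to 212.1 and 193.9 to 337.9 RPKM. Of the 8 heart muscle markers MYH7 was higher and TNNI3, ACTC1 and TNNC1 were lower, and of 6 markers of T and NK cells TRAC was lower. MYH7 lost its call with median-ratio scaling, and the lower muscle genes lost theirs with quantile normalization. No fat cell or neutrophil marker was called in all PH. The part of these markers in the lysosomal results was not tested.

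Some members can be set beside the macrophage sum library by library (the plot of 4 genes against these markers). The sum is mostly CD74, an antigen-presentation gene, which made up 60.3 to 70.2% of it in 11 libraries and 15.2% in PH-failure replicate 3, so it is also given for the other 14 markers, a choice made after seeing the data. CTSS was highest in PH-failure replicate 1 (56.5 RPKM) and PH-healthy replicate 2 (54.4). These had the 2 highest sums with CD74 (468.4 and 410.8 RPKM), while without CD74 PH-failure replicate 3 was highest (230.7), followed by them (150.1 and 127.9).

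GAA was at 5.28 RPKM in PH-healthy replicate 1 and at 4.77 in replicate 3, against at most 3.75 in low PAP. The macrophage sums of these libraries, 259.2 and 249.0, lay within the low-PAP range with CD74. Without CD74 replicate 1, at 103.0, was above the low-PAP range of 64.9 to 99.5 and replicate 3, at 89.1, within it. PH-healthy replicate 2 had GAA at 6.03 RPKM, with sums of 410.8 with CD74 and 127.9 without, both above low PAP. In PH-failure replicates 1, 2 and 3 GAA was at 5.55, 5.39 and 4.82 RPKM. Their sums were 468.4, 290.5 and 272.1 with CD74 and 150.1, 88.0 and 230.7 without. The relation of GAA to these markers was not tested.

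**Figure D5:**
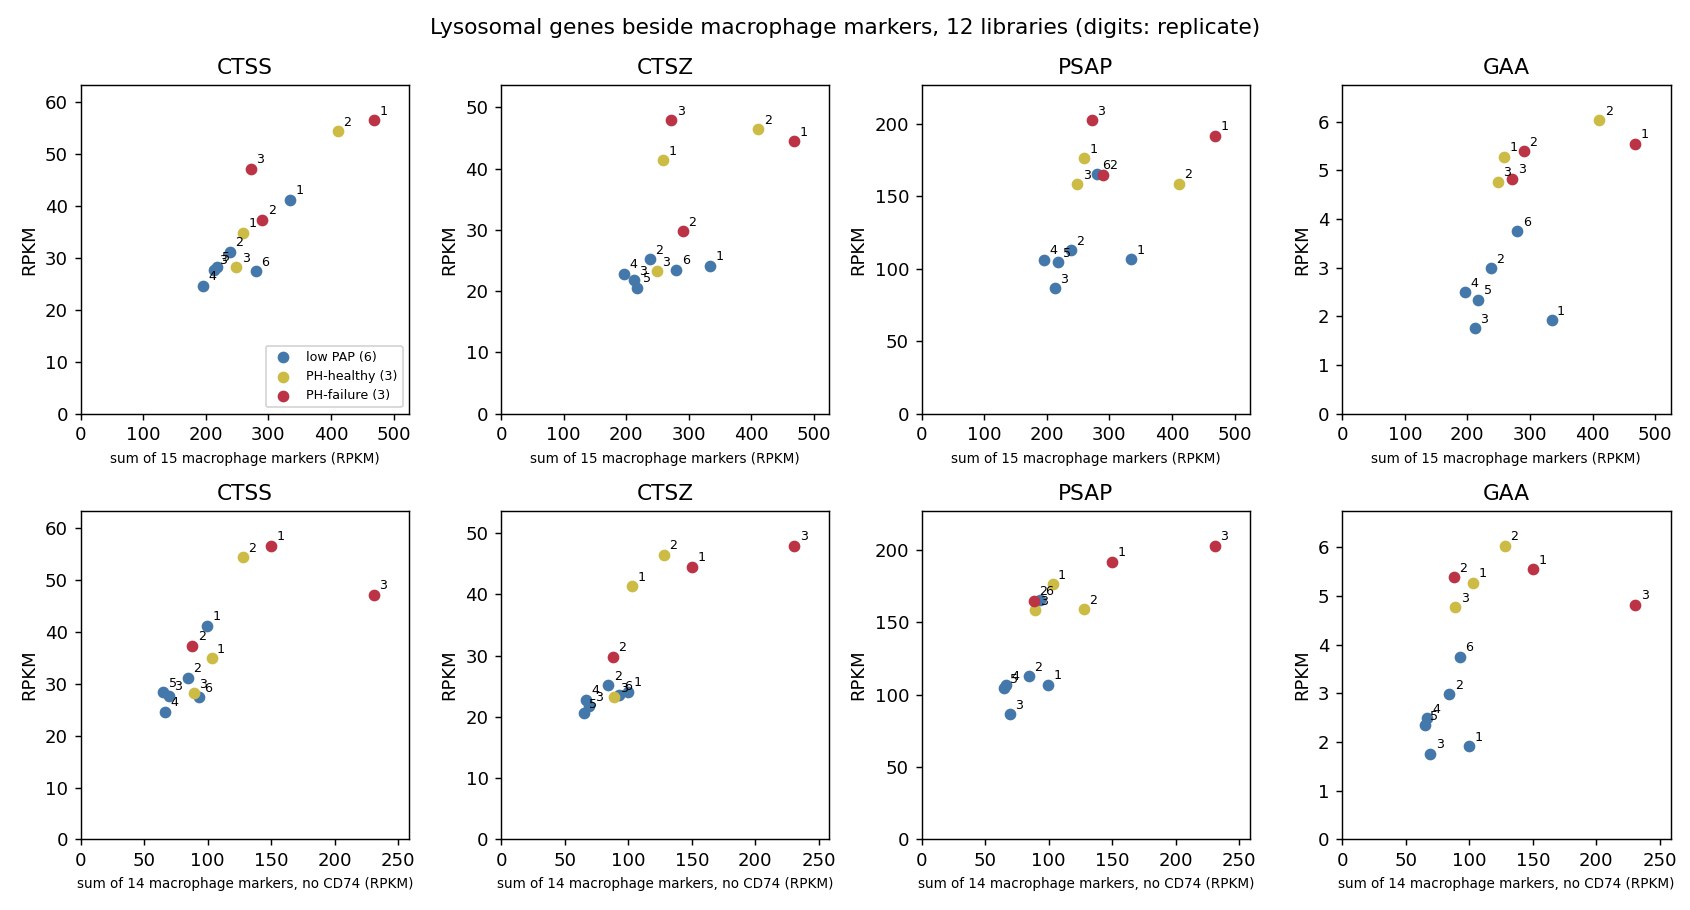
RPKM of CTSS, CTSZ, PSAP and GAA (y axes) against the summed RPKM of macrophage markers (x axes), 1 point per library with its replicate number. The upper row sums all 15 markers and the lower row leaves out CD74, which moves PH-failure replicate 3 from 272.1 to 230.7 RPKM, the highest of the 12 libraries.

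The authors' deposited table compares high with low PAP and gives a false discovery rate under 0.05 to 2 of the 36 members, among them PSAP (signed fold 1.51, 0.0296). In the authors' deposited table TPP1 has a signed fold of 1.91 and a false discovery rate of 0.0544, and GAA and GLA have signed folds of 1.99 and 2.11 with false discovery rates of 0.624 and 0.592. The test behind these values was not given in the sources used here.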

How the data were processed

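RNA was extracted with Trizol and sequenced from standard Illumina libraries, per the labels' protocols. The authors deposited 1 table of RPKM per gene and library, per the file headers, with the signed fold (a score, negative where high PAP is lower), p-value and false discovery rate of their own comparison, per the file headers. Not given in the sources used here were the aligner, the genome build, the use of strand and the handling of reads that match several genes. Overlapping or antisense neighbours thus cannot be separated, and positions are as the table gives them.

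Whole reads were recovered from the RPKM steps (11373 of 11374 tested genes within 0.05 reads; median 370 reads). Genes reaching 1 RPKM in 3 or more libraries were fitted as log2(RPKM + 1) with limma 3.58.1 in R 4.3.3 (statmod 1.5.0; robust, with a trend) in 1 model of 3 groups, with 4 comparisons and Benjamini-Hochberg adjustment over all 11374 genes. The fit was tested on simulated data. A planned count test gave way to limma because the unit is RPKM. Tables were made with pandas 2.3.3 and numpy 2.4.6, plots with matplotlib 3.10.9, in Python 3.11.15.

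The members and lists were chosen with earlier results of these data known. 1 group of members enters the counts but is not reported here by name. Other called members are named, and values per library are given for the 15 of smallest p against low PAP and the 3 of smallest p between PH-failure and PH-healthy; other lists are given by counts and the 2 of smallest p, and further genes named from them were chosen after their values were seen. Alternatives were pseudocount 0.1, no filter, quantile, median-ratio and non-mitochondrial scaling, limma-voom, the library series, a replicate block and leaving out each library; limma-voom and the alternatives on other lists were added after seeing the data.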

Additional observations from a re-analysis of the deposited data

Results flagged for a closer look

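Of 36 low-PAP groups of 6 values tested, 3 held a library far from the other 5, by a gap, as a share of the group's range, above Dixon's 95% critical value; chance flags about 1 in 20 such groups. CTSH was at 24.5 RPKM in low-PAP replicate 1, against 15.3 to 18.5 in the others (gap 0.65 of the range). PSAP was at 165.4 RPKM in low-PAP replicate 6, against 86.6 to 112.7 (gap 0.668). LAMP2 was at 32.4 RPKM in the same replicate, against 26.4 to 28.2 (gap 0.706).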

How the results depend on the processing

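Of the 35 members, 13 were called in PH-failure, 11 in PH-healthy, 16 in all PH and 0 between PH-failure and PH-healthy. With quantile normalization 8 were called in PH-failure and 7 in PH-healthy, and with median-ratio scaling 8 in PH-failure. Leaving out 1 library at a time gave 4 to 14 in PH-failure (4 without PH-failure replicate 3), 4 to 14 in PH-healthy (4 without PH-healthy replicate 1 or 2) and 12 to 17 in all PH. With the replicate number as a block, 5, 6 and 9 were called. The labels do not say that the numbers pair animals. Same-numbered libraries deviated together with correlations of -0.257 to 0.193, which with so few animals cannot settle whether they do. Counts stayed within 1.5 times under the other alternatives run, and between PH-failure and PH-healthy they were 0 under all. Calls held in all 20 alternatives for GLA, GAA and PSAP in PH-failure, GLA and GAA in PH-healthy, and GAA, GLA, PSAP and TPP1 in all PH. The cause of the losses was not tested. edgeR and DESeq2 on recovered reads were planned and not run. With 3 animals per group, differences of the size seen between PH-failure and PH-healthy could not be resolved.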
